A study of Mus musculus with 18 samples.

Results

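The forkhead (Fox) genes encode transcription factors that share a winged-helix DNA-binding domain, and they were followed here through the developing palate of mouse embryos. Members were the genes whose array annotation gave a single symbol starting with Fox, a letter from a to r and a number. The rule found 37 members among 18193 measured genes, 36 of them coding for protein. The remaining member, Foxl2os, is a noncoding RNA beside Foxl2 that entered through the letters of its symbol. The members had 82 probe sets, and each gene was read from its brightest probe set over the 18 arrays.

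Forkhead proteins bind related DNA motifs but act in different cells. Foxf1 and Foxf2 are hedgehog-responsive factors of the mesenchyme, and mice without Foxf2 have a cleft palate. Foxa1, Foxa2 and Foxj1 act in epithelia, where Foxj1 switches on the genes of motile cilia. The FoxO proteins are held in the cytoplasm by insulin and growth factor signalling, and Foxm1 drives genes of late cell division.

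RNA of palate tissue from C57BL/6J embryos at day 15.5 (E15.5) was measured on 18 Affymetrix arrays, 6 in each of 3 groups. The groups were posterior palate of Tgfbr2 fl/fl;K14-Cre mutants, posterior palate of Tgfbr2 fl/fl controls and anterior palate of Tgfbr2 fl/fl controls, so every group carried the floxed receptor alleles. K14-Cre is driven by a keratin promoter active in epithelial cells, so the deletion was not aimed at mesenchyme or muscle. The samples were whole tissue, and fewer cells of a type and less RNA per cell cannot be told apart. Mutants and controls came from separate litters, so litter and genotype cannot be told apart. The labels list 6 samples in each group and the design text states 5; all 6 entered the analysis. The source field calls the control model wild type while the genotype field gives Tgfbr2 fl/fl, and nothing states which arrays share an embryo or a pool. The p-values therefore cover only the spread between these arrays, which may be technical.

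Levels are log2 values from robust multi-array averaging (RMA), on which 1 unit is a doubling. Array means lay between 6.26 and 6.37. Mutant arrays 1 to 3 were at 6.35 to 6.37, and all other arrays at 6.26 to 6.28. Hybridisation spike-ins parted arrays 1 to 3 from arrays 4 to 6 in each group, a split that no label names. Labelling spike-ins averaged 7.90 ± 0.55 in mutant posterior arrays, 10.3 ± 0.75 in those of control posterior and 10.2 ± 0.82 in those of control anterior palate (SD, n = 6 each). The highest mutant array (8.91) lay below the lowest control array (9.44). Labelling and genotype therefore cannot be told apart. Mutant array 1 stood apart. It was the lowest of the 18 arrays for 11 members and the highest for 8, and its mean over 12 genes of basal and simple epithelium was 9.23, against 11.0 to 11.9 in the other mutant arrays. Its mean over 12 skeletal muscle genes was 11.7, against 8.93 to 11.3 in the other mutant arrays. Values without it are given beside the results it moves most.

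Foxf1 and Foxf2, the mesenchymal genes that mark the family in the palate, were both above the median gene, at percentiles 65.4 and 64.0 of all gene levels. In all, 18 members lay above the median gene, 11 between the 25th percentile and the median, and 8 below the 25th percentile. The bright end held Foxa1, Foxp1, Foxj1, Foxo3 and Foxj3, and the dim end held Foxd4, Foxb1, Foxa3 and Foxp3, the factor of regulatory T cells. Levels of different probe sets are not comparable as amounts, and no detection calls were used, so low values may be background. Over the 6 mutant arrays the SD of a member had a median of 0.31, against 0.16 over the control posterior arrays (0.23 against 0.13 over all genes). In the mutants 4 members had an SD above 1, and in either control group none did. Without mutant array 1 none of the 37 had an SD above 1 (highest 0.95, Foxf2), and the median SD of members was 0.23, against 0.20 over all genes in the same 5 mutant arrays.

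The genotype comparison asked which forkhead genes differ in posterior palate when epithelial cells lose Tgfbr2, a receptor for TGF-beta ligands. Differences are mutant posterior minus control posterior, tested with limma, and a call means a p under 0.05 after Benjamini-Hochberg adjustment over every gene measured. Foxo3, Foxo4, Foxk1 and Foxj2 were higher in mutant palate and Foxf1 was lower, each by less than 1.5-fold. These 5 are 13.5% of the 37 members, where 13.5% of all genes were called, so the share of members called equals the background. Of the members 4 rose (7.73% of all genes) and 1 fell (5.73% of all genes), and 6 had an unadjusted p under 0.05, 16.2% of members, where 28% of all genes did. The 6 mutant values lay clear of the 6 control posterior values for 1 member, Foxo3, or 2.70% of members, where 6.55% of all genes did so. The median difference of members was 0.05, against 0.04 over all genes, and their median absolute difference was 0.17, against 0.14. The other 32 members differed by between -0.96 (Foxa1) and 0.31 (Foxc1).

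**Figure D1:**
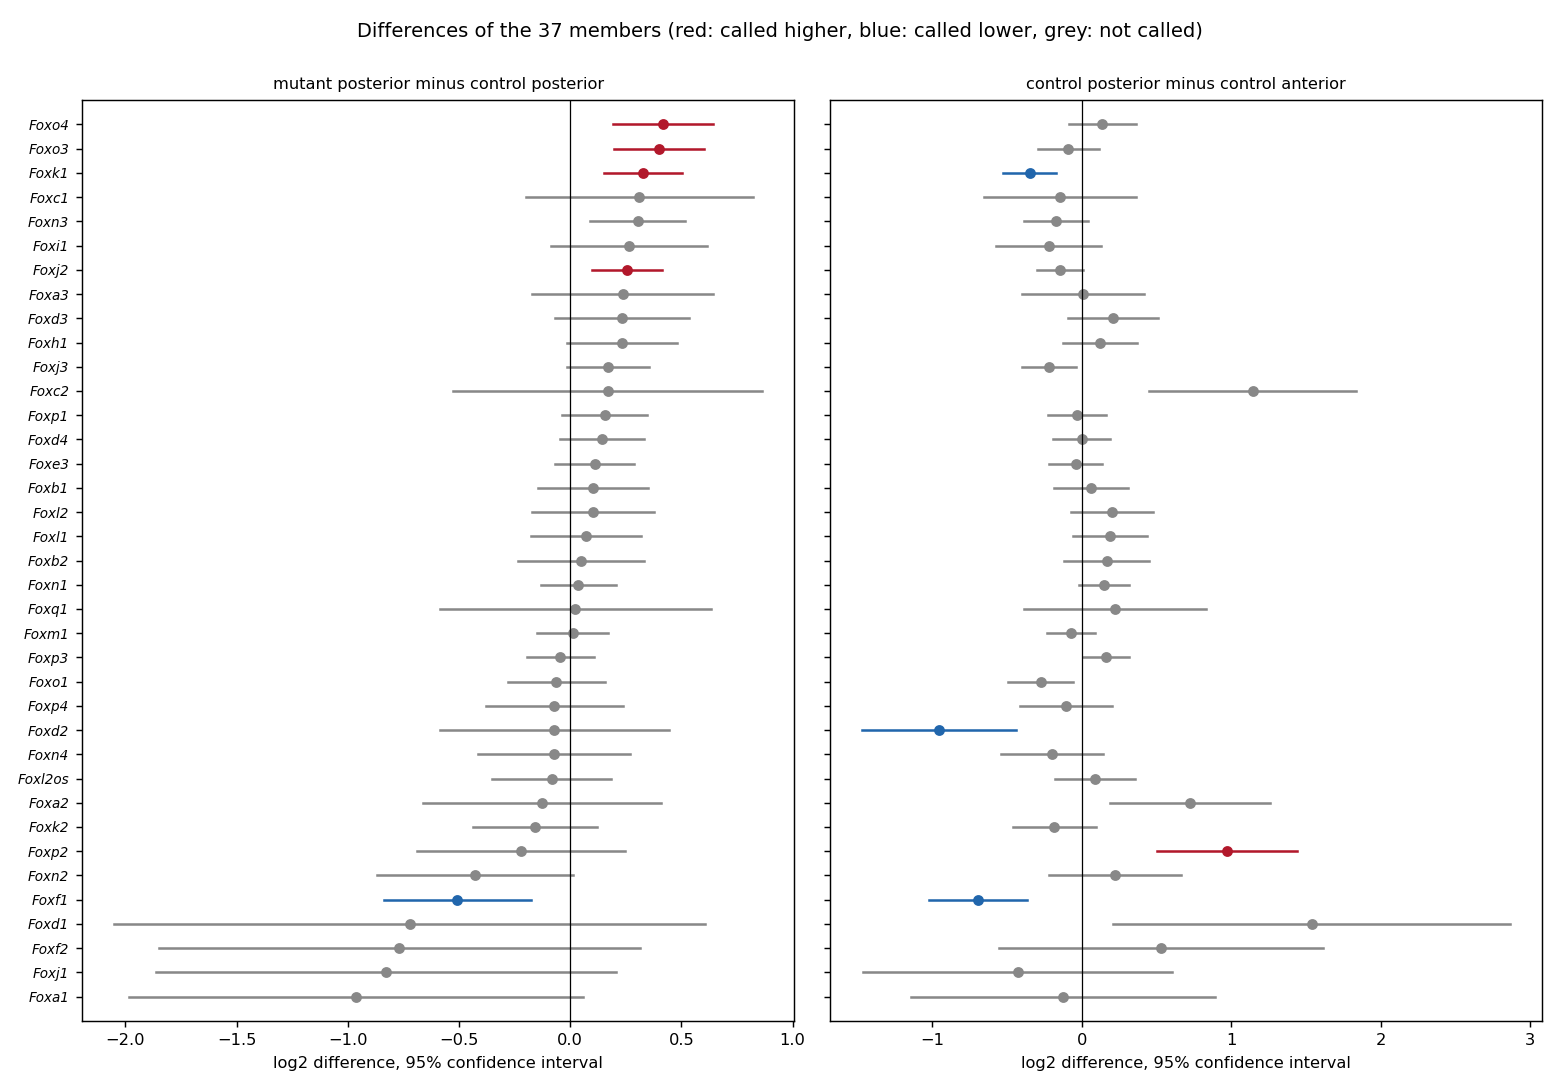
Log2 differences of the 37 members with their 95% confidence intervals from the fit of 3 groups, mutant posterior minus control posterior on the left and control posterior minus control anterior on the right, in the order of the left panel. Red is called higher, blue called lower and grey not called. Foxf1 is blue in both panels, while Foxk1 is red on the left and blue on the right, and the widest intervals are those of Foxd1, Foxf2, Foxj1 and Foxa1.

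Foxf1 fell in mutant palate. Its level was 7.72 at the lowest, 7.86 at the median and 8.09 at the highest in mutant posterior arrays, and 7.99, 8.44 and 8.59 in control posterior arrays. All 6 mutant arrays lay below the control mean, and the ranges overlapped through mutant array 6 and control array 6. The difference was -0.51 (SE 0.16, adjusted p = 0.0399), a level 1.42-fold lower. The second, dimmer Foxf1 probe set differed by -0.20 and was not called (adjusted p = 0.422 with every probe set tested). The call held in 3 of 12 fits that left out an array, with an adjusted p of up to 0.0851. It was lost without mutant array 1 (difference -0.49, adjusted p = 0.0681).

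Foxf2, whose loss cleaves the palate in mice, was not called. Its levels in the mutant arrays were 5.26, 7.72 and 7.62 for arrays 1 to 3 and 8.50, 9.23 and 9.81 for arrays 4 to 6, against 8.54 to 9.13 in control posterior arrays. The mutant arrays thus spanned the controls on both sides, with arrays 1 to 4 below every control array and arrays 5 and 6 above. The difference was -0.77 (95% confidence interval -1.85 to 0.32, adjusted p = 0.355). Without mutant array 1 it was -0.22 (adjusted p = 0.727). The other Foxf2 probe set, far dimmer at a mean of 3.85, differed by 0.02 (adjusted p = 0.910 with every probe set tested).

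Foxo3 and Foxo4, both FoxO factors restrained by growth factor signalling, rose in mutant palate. Foxo3 read 9.94 at the lowest, 10.0 at the median and 10.4 at the highest in mutant posterior arrays, and 9.63, 9.67 and 9.81 in control posterior arrays. Every mutant array lay above every control array, and arrays 4 to 6 were the 3 highest. The difference was 0.40 (SE 0.10, adjusted p = 0.0119), and the second Foxo3 probe set differed by 0.37 (adjusted p = 0.0127 with every probe set tested), while the third and dimmest differed by 0.16 and was not called (adjusted p = 0.302). Foxo4, an X-linked gene, read 7.75, 8.04 and 8.32 in mutant posterior arrays and 7.47, 7.59 and 7.97 in control posterior arrays. Its ranges overlapped, since control array 1 read higher than mutant arrays 2, 5 and 6, but all 6 mutant arrays lay above the control mean (difference 0.42, SE 0.11, adjusted p = 0.0162). Its dimmer second probe set differed by 0.22 and was not called (adjusted p = 0.174 with every probe set tested). Foxo1, the third FoxO gene on the array, differed by -0.06 (95% confidence interval -0.28 to 0.16, adjusted p = 0.741).

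Foxk1, a forkhead factor also made in muscle precursors, read 7.92 at the lowest, 8.05 at the median and 8.23 at the highest in mutant posterior arrays, and 7.55, 7.71 and 7.96 in control posterior arrays. The ranges met only through control array 3, and the difference was 0.33 (SE 0.08, adjusted p = 0.0158). Foxj2 read 7.88, 8.00 and 8.23 in mutant posterior arrays and 7.62, 7.74 and 7.96 in control posterior arrays. All 6 mutant arrays lay above the control mean, and array 1 was the highest (difference 0.25, SE 0.07, adjusted p = 0.0312). Without mutant array 1 the difference of Foxj2 was 0.21 and the call was lost (adjusted p = 0.0655), while Foxo3, Foxo4 and Foxk1 stayed called. In that fit 3 members were called, 8.11% of them, where 11.5% of all genes were. Foxn3, a checkpoint repressor, just missed the threshold (difference 0.30, adjusted p = 0.0573). Its 3 other probe sets disagreed, at -0.002 for the second brightest (adjusted p = 0.994), 0.76 (adjusted p = 0.00302) and 0.37 (adjusted p = 0.0503), with every probe set tested. The other probe sets of Foxk1, at 0.31 and 0.20, and of Foxj2, at 0.20, were not called.

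All 5 calls were lost when the sets of arrays entered the fit as a random block. The 4 sets were arrays 1 to 3 and arrays 4 to 6 of the mutants and of the controls, with both control regions together. In that fit 0 members were called, where 3.23% of all genes were. The adjusted p was 0.0815 for Foxk1, 0.0903 for Foxo3, 0.114 for Foxo4, 0.159 for Foxj2 and 0.173 for Foxf1, at the same differences. With the array number as a block only Foxo3 stayed called, 2.7% of members, where 4.89% of all genes were called. Equal numbers did not pair these samples. In the mutants 7 of 11 stratified epithelium genes, 7 of 11 tendon genes and 4 of 11 cartilage and bone genes also rose and 0 fell. The means of these lists ran over 8.25 to 10.0, 8.94 to 9.62 and 8.02 to 10.1 in mutant posterior arrays, against 7.21 to 7.96, 8.58 to 8.88 and 7.49 to 8.21 in control posterior arrays. Smooth muscle and pericyte genes had 3 higher of 12, skeletal muscle 1 higher of 12 (11 of 12 positive, median 0.77), nasal secretory epithelium 1 higher and 3 lower of 12, leukocytes 1 higher and 2 lower of 12, red cells 2 lower of 8 and neural crest derivatives 1 higher of 8. With the 4 sets as a random block 3 stratified epithelium, 4 tendon, 1 cartilage and bone and 1 smooth muscle gene stayed higher, 2 leukocyte genes and 1 red cell gene stayed lower, and no gene of the other marker lists was called. The mean of the smooth muscle list ran over 8.08 to 8.72 in mutant posterior arrays, against 7.88 to 8.12 in control posterior arrays, and that of red cells over 6.23 to 7.80, against 7.19 to 7.66. The part of these cell types in the forkhead differences was not tested.

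**Figure D2:**
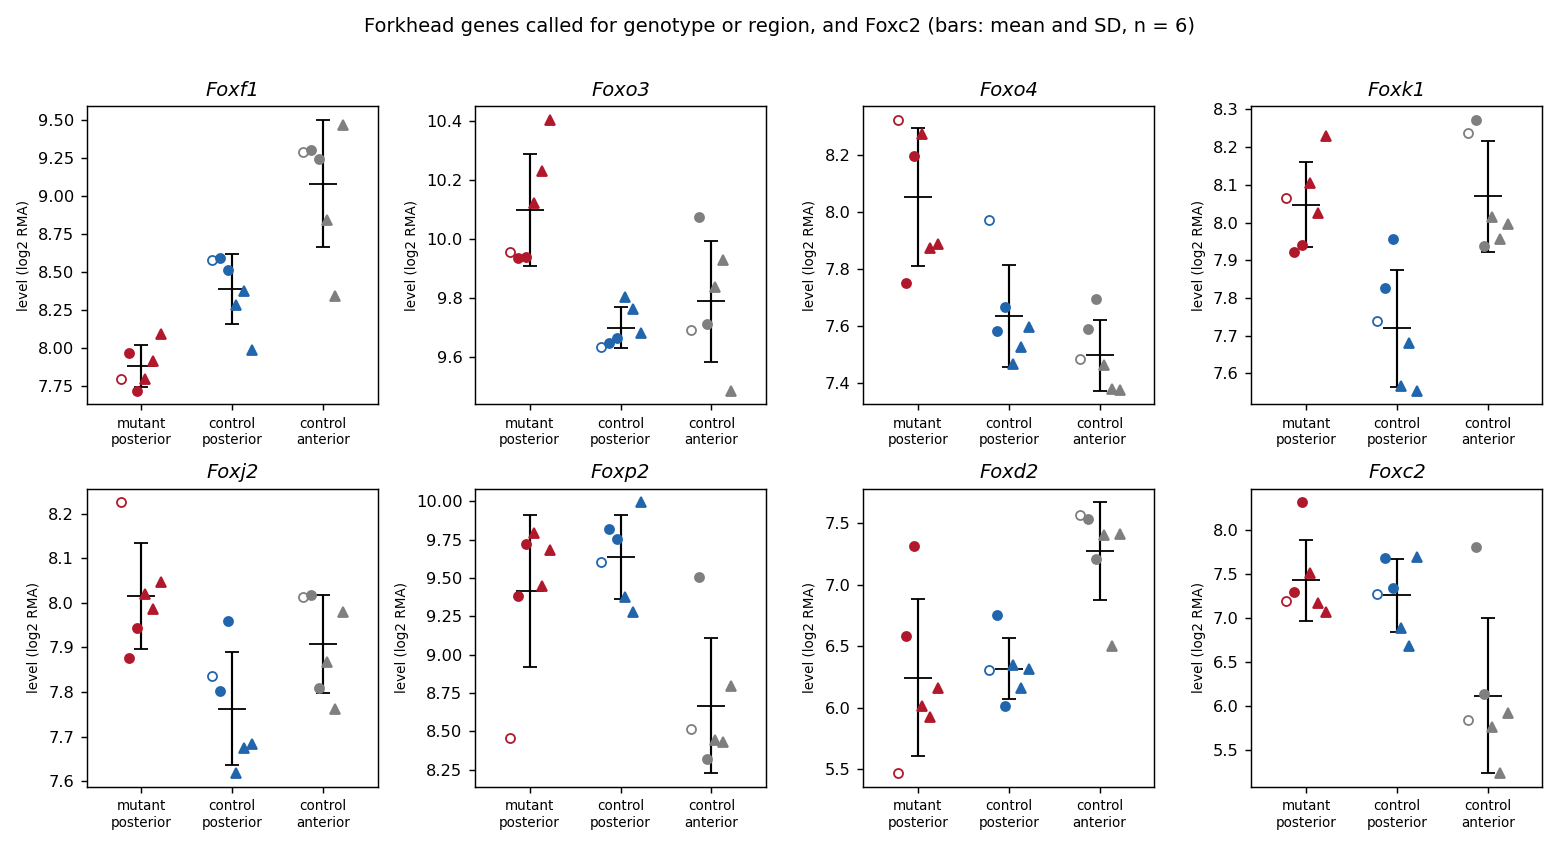
Log2 RMA level of 8 members in each array of the 3 groups, with the mean and SD (n = 6) as black bars. Circles are arrays 1 to 3, triangles arrays 4 to 6 and open circles array 1. Foxo3 shows all mutant posterior arrays above all control posterior arrays, and Foxf1 is lowest in mutant posterior, higher in control posterior and highest in control anterior palate.

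Promoters, the stretches where transcription starts, were read for members in the RefSeq table of mouse genome build GRCm38.p6, over the 250 bases before each listed start. Some listed starts lie inside the span of the gene, as for Foxa1, Foxn3, Foxn4 and Foxp1. The table gave 30 promoters of 25 members. It held none of Foxf1, Foxk1, Foxo4, Foxp2, Foxj1 or Foxc2, so no motif was searched for in those genes. Those of Foxo3 (chr10:42276696-42276945, minus strand) and Foxj2 (chr6:122819934-122820183, plus strand) are shown because both genes rose in the mutants, that of Foxd2 (chr4:114908899-114909148, minus strand) because the gene was lower in posterior palate, and that of Foxa1 (chr12:57546112-57546361, minus strand) because the forkhead motif was found there. Each reads 5′ to 3′ towards the listed start, and capitals mark the motif.
Foxo3: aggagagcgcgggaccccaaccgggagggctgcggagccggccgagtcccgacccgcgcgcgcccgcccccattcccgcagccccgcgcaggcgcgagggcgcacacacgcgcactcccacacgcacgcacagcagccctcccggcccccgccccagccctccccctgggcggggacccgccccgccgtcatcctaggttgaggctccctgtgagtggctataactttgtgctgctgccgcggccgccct
Foxj2: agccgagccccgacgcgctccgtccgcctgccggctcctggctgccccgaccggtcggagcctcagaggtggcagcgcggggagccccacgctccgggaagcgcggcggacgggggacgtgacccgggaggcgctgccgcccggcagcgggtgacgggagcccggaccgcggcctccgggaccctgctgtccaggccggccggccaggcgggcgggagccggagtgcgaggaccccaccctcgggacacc
Foxd2: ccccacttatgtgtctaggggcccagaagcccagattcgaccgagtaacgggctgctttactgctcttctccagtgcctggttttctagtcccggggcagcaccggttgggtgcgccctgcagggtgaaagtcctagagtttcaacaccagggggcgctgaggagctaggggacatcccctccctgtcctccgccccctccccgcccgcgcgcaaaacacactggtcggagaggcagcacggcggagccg
Foxa1: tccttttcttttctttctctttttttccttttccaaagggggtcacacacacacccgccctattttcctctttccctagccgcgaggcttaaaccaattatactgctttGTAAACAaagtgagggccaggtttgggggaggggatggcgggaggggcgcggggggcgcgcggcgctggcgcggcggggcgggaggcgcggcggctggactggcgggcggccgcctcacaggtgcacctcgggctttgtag
The forkhead core motif TGTTTAC was searched on both strands. It stood in 1 of the 30 member promoters, that of Foxa1, and in 3.17% of all 32851 promoters. Its first base was 141 bases before the listed start, on the opposite strand. That start lies inside Foxa1, whose span is chr12:57540628-57548029, so this stretch is not upstream of the whole gene. The GLI motif TGGGTGGTC was in 0 of the 30 and in 0.225% of all promoters, and the SMAD palindrome GTCTAGAC in 0 of the 30 and in 0.167% of all. At shares this low, 0 of 30 cannot tell member promoters from others. Member promoters were rich in G and C, with a median of 63.0%, against 52.4% over all promoters, and with a median of 17.5 CpG pairs, against 6. The promoter of Foxj2 had the highest share of any member promoter, 80.4%.

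Several members uncalled over all arrays were called when only 1 of the 2 sets of mutant arrays entered the fit. With mutant arrays 1 to 3 alone 7 members were called, 18.9% of them, where 27.4% of all genes were. Of the members called over all arrays only Foxo4 was among them. Mutant arrays 2 and 3 alone, a fit added after the data were seen, gave 5 members, 13.5%, where 25.7% of all genes were called. None of these was called over all arrays. With mutant arrays 4 to 6 alone 7 were called as well, 18.9%, where 18.2% of all genes were. They included Foxo3, Foxo4, Foxk1 and Foxj2 but not Foxf1. The fits of arrays 1 to 3 and of arrays 4 to 6 use the same control arrays, and the difference between the sets was not itself tested. Foxk2, which acts with Foxk1 on metabolic genes, read 9.67, 9.51 and 9.50 in mutant arrays 1 to 3 and 8.90, 8.84 and 8.76 in arrays 4 to 6, against 9.26 to 9.43 in control posterior arrays. No mutant array lay within the control range. Its difference was 0.21 with arrays 1 to 3 (adjusted p = 0.0242) and -0.52 with arrays 4 to 6 (adjusted p = 4.53e-05), and -0.16 over all 6 (adjusted p = 0.469). With arrays 2 and 3 it was 0.15 and not called (adjusted p = 0.114). The other Foxk2 probe sets differed by 0.05, -0.14, -0.03 and -0.02 over all 6 mutant arrays. None of them was called with every probe set tested, and they were not fitted by set of arrays.

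Foxn2 read 8.50, 8.09 and 7.59 in mutant arrays 1 to 3, below every control posterior array, and 9.11, 8.96 and 9.13 in arrays 4 to 6, against 8.88 to 9.11 in controls. Its difference was -0.93 with arrays 1 to 3 (adjusted p = 0.000856) and 0.07 with arrays 4 to 6 (adjusted p = 0.721). With arrays 2 and 3 it was -1.15 (adjusted p = 0.000122). Foxf2 differed by -1.92 with arrays 1 to 3 (adjusted p = 0.00405), by -1.12 with arrays 2 and 3 (adjusted p = 0.00703) and by 0.39 with arrays 4 to 6 (adjusted p = 0.387). Foxh1, a partner of SMAD proteins downstream of the TGF-beta family, differed by 0.49 (adjusted p = 0.00189) with arrays 1 to 3 and by -0.03 with arrays 4 to 6. Foxd3, a neural crest factor, differed by 0.44 (adjusted p = 0.00943) and 0.03 in the same fits. With arrays 2 and 3 alone Foxh1 was at 0.42 (adjusted p = 0.0112) and Foxd3 at 0.35 (adjusted p = 0.0479). Both genes were below the median gene, at percentiles 33.05 for Foxh1 and 35.26 for Foxd3. The other, dimmer Foxh1 probe sets differed by 0.07 and -0.15 over all 6 mutant arrays, and neither was called with every probe set tested. Foxo4 was called with each set of 3, at 0.46 and 0.38, and not with arrays 2 and 3 (0.34, adjusted p = 0.0830).

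**Figure D3:**
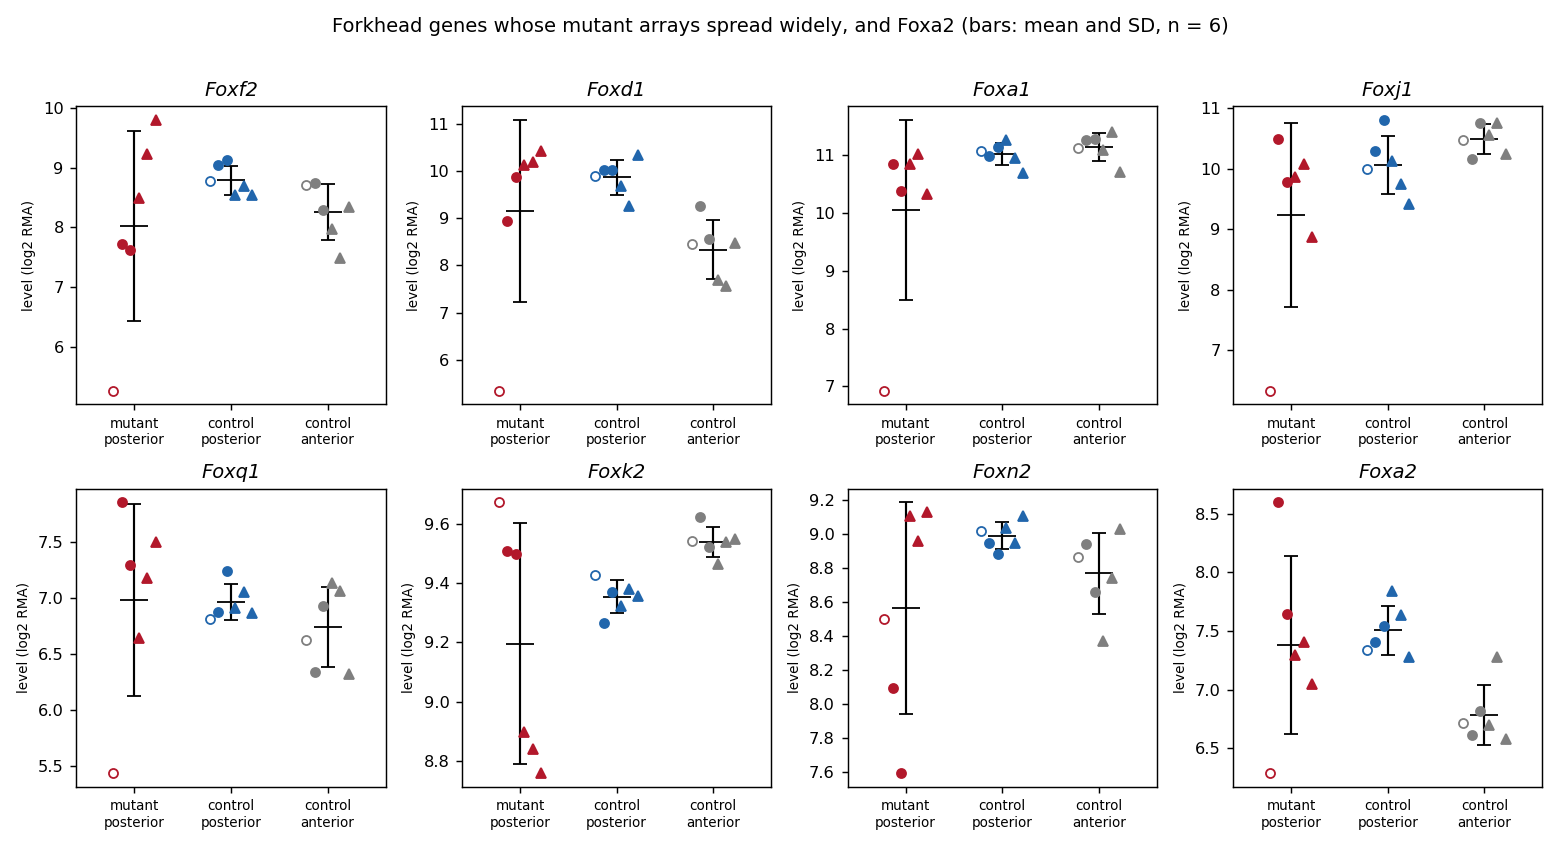
Log2 RMA level of 8 members in each array of the 3 groups, with the mean and SD (n = 6) as black bars, circles for arrays 1 to 3, triangles for arrays 4 to 6 and open circles for array 1. Mutant array 1 is far below the rest for Foxf2, Foxd1, Foxa1, Foxj1 and Foxq1, and the mutant arrays of Foxk2 and Foxn2 part into 3 and 3. Foxa2 parts control posterior from control anterior arrays.

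Of the epithelial members, Foxa1, Foxj1 and Foxq1 had their most distant value in mutant array 1. Foxa1, a factor that opens chromatin in epithelia, read 6.93 in that array and 10.3 to 11.0 in the other mutant arrays, against 10.7 to 11.2 in control posterior arrays. Foxj1, the switch of motile cilia, read 6.33 in that array and 8.87 to 10.5 in the other mutant arrays, against 9.42 to 10.8 in control posterior arrays. Foxq1, an epithelial factor of hair and stomach, read 5.43 in it and 6.65 to 7.86 in the other mutant arrays, against 6.81 to 7.24 in control posterior arrays. None of the 3 was called. The differences were -0.96 for Foxa1 (adjusted p = 0.206), -0.83 for Foxj1 (adjusted p = 0.289) and 0.02 for Foxq1 (adjusted p = 0.968). Without mutant array 1 they were -0.34, -0.25 and 0.33, and none was called. Foxa1 was called lower with mutant arrays 1 to 3 alone (adjusted p = 0.0450). Foxq1 was called higher with mutant arrays 2 and 3 alone (adjusted p = 0.0490), but its dimmer probe set differed by -0.37 over all mutant arrays and was not called. Foxa2, also epithelial, read 6.29 in mutant array 1 and 7.05 to 8.60 in the other mutant arrays, against 7.28 to 7.84 in control posterior arrays. Its difference was -0.13 (adjusted p = 0.789). Foxn1, a keratinocyte factor, was not low in mutant array 1, at 4.97 against 4.63 to 5.00 in the other mutant arrays.

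Cilium genes were low beside Foxj1 in that array. The mean of 23 measured genes of motile cilia was 5.48 in mutant array 1 and 7.17 to 7.91 in the other mutant arrays, against 6.79 to 8.10 in control posterior arrays. Of the 23 genes, 15 had their lowest value of all 18 arrays there. The list gave 0 calls for genotype, with a median difference of 0.02 against 0.04 over all genes. Its lowest p values were those of Dnaic2, a dynein chain (difference -1.40, adjusted p = 0.186), and Spag6, a protein of the ciliary core (0.23, adjusted p = 0.151). None of the 12 basal and simple epithelium genes was called, and their mean ran over 9.23 to 11.9 in mutant posterior arrays, against 11.2 to 11.6 in control posterior arrays. Foxd1, a mesenchymal factor, was also lowest in mutant array 1, at 5.34 against 8.93 to 10.4 in the other mutant arrays and 9.25 to 10.3 in control posterior arrays. Its difference was -0.72 (adjusted p = 0.492), and 0.04 without that array (adjusted p = 0.953).

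**Figure D4:**
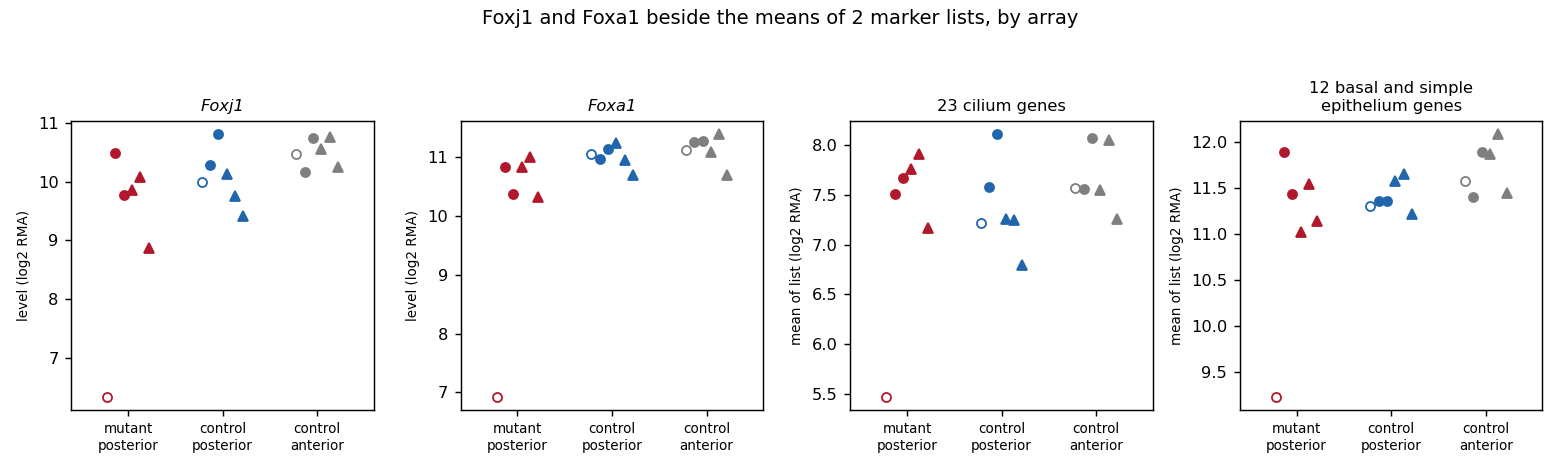
Log2 RMA level of Foxj1 and Foxa1 and the mean level of 23 cilium genes and of 12 basal and simple epithelium genes in each array, with circles for arrays 1 to 3, triangles for arrays 4 to 6 and open circles for array 1. In all 4 panels mutant posterior array 1 lies below the other 17 arrays.

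Genes known to lie downstream or upstream of forkhead factors were listed with earlier results of these data known. Of 20 named targets of FoxO factors, 5 rose and 2 fell in the mutants, where 7.73% of all genes rose and 5.73% fell. Their median difference was 0.24, against 0.04 over all genes. Klf2, a shear-responsive transcription factor, rose by 0.73 (SE 0.22, adjusted p = 0.0359) and Fbxo32, a ubiquitin ligase of muscle wasting, rose by 0.69 (SE 0.14, adjusted p = 0.00463). The remaining 3 that rose were Irs2 by 0.49 (adjusted p = 0.00282), Insr by 0.37 (adjusted p = 0.0250) and Txnip by 0.33 (adjusted p = 0.0315). Cdkn1b, the cell cycle inhibitor p27, fell by 1.09 (SE 0.22, adjusted p = 0.00350) and Gadd45a, a stress response gene, fell by 0.76 (SE 0.13, adjusted p = 0.00110). The 13 uncalled targets differed by between -0.18 and 0.65. With the 4 sets as a random block Cdkn1b (adjusted p = 0.0159), Gadd45a (0.0264) and Irs2 (0.0404) stayed called, while Klf2 (adjusted p = 0.178), Fbxo32 (0.0689), Insr (0.144) and Txnip (0.191) were lost.

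Foxm1 itself differed by 0.01 in the mutants (95% confidence interval -0.15 to 0.17, adjusted p = 0.936), at 6.70 to 6.98 in mutant posterior and 6.59 to 7.07 in control posterior arrays. Of 21 cell cycle genes of its G2 and M phase programme, 6 fell and 0 rose. Over all genes 5.73% fell and 7.73% rose. Birc5, the chromosomal passenger survivin, fell by 0.39 (SE 0.06, adjusted p = 0.000847) and Cenpa, the centromeric histone, fell by 0.54 (SE 0.10, adjusted p = 0.00165). Lin54 and Lin9, subunits of the complex that acts on these promoters, fell by 0.76 (adjusted p = 0.0181) and 0.65 (adjusted p = 0.0130). The median of the list was -0.16, against 0.04 over all genes. With the 4 sets as a random block Birc5 (0.0170) and Cenpa (0.0217) stayed called, and Lin9 (0.0554) and Lin54 (0.0622) were lost.

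Hedgehog signalling, which acts upstream of the Foxf genes, gave 3 higher and 0 lower calls among 11 genes. Over all genes 7.73% were called higher and 5.73% lower. The coreceptors Cdon and Boc rose by 0.87 (SE 0.16, adjusted p = 0.00209) and 0.43 (SE 0.13, adjusted p = 0.0317), and the transcription factor Gli3 rose by 0.39 (SE 0.11, adjusted p = 0.0275). The ligand Shh differed by -0.33 (adjusted p = 0.714) and the target genes Ptch1 and Gli1 by -0.19 (adjusted p = 0.521) and -0.06 (adjusted p = 0.790). With the 4 sets as a random block only Cdon of the 3 stayed called (0.0199, against 0.113 for Boc and 0.190 for Gli3). Of 12 growth factors, regulators and receptors that act with Foxf genes in the palate, Fgf10, a mesenchymal ligand for epithelium, rose by 0.57 (SE 0.18, adjusted p = 0.0379, and 0.221 with that block). Fgf18, which Foxf factors are known to repress in palatal mesenchyme, differed by 0.21 (adjusted p = 0.515). None of 13 palate mesenchyme regulators was called, with Tbx22 at -1.21 (adjusted p = 0.139) and Barx1 at -0.61 (adjusted p = 0.0643).

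**Figure D5:**
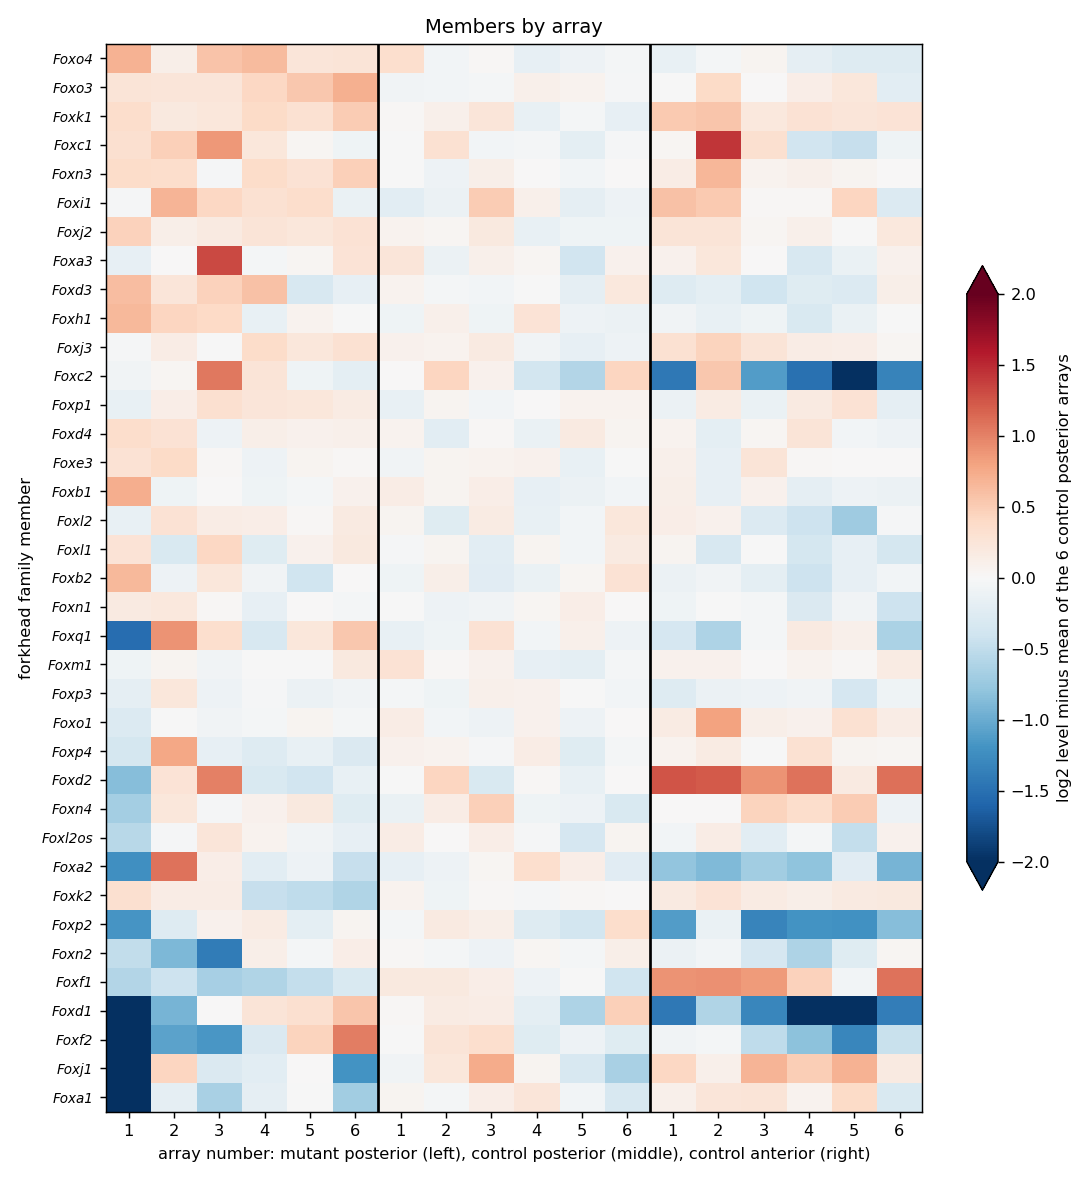
Level of each of the 37 members in each array minus its mean over the 6 control posterior arrays (log2, colour scale from -2 to 2), with arrays 1 to 6 of mutant posterior, control posterior and control anterior palate from left to right and members in order of their genotype difference. Mutant array 1 reaches the blue end of the scale at Foxa1, Foxj1, Foxf2 and Foxd1, and it also holds several red cells. Some control anterior arrays reach that end at Foxd1 and Foxc2. Control anterior arrays are blue for Foxc2 (except array 2), Foxd1 and Foxp2 and red for Foxd2 and Foxf1 (except array 5 for Foxf1).

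The region comparison asked which members distinguish posterior from anterior palate in controls, as control posterior minus control anterior. Foxp2 was higher in posterior palate, and Foxf1, Foxd2 and Foxk1 were lower. These 4 are 10.8% of members, where 3.82% of all genes were called, 1.7% higher and 2.12% lower. At an unadjusted p under 0.05 there were 10 members, 27.0% of them, where 19.8% of all genes passed. The groups did not overlap for 2 members, Foxa2 and Foxk2, or 5.41%, where 6.32% of all genes did not. The median absolute difference of members was 0.19, against 0.12 over all genes. Equal array numbers paired the control samples by the rule given with the processing, and with the number as a replicate block 11 members were called, 29.7% of them, where 17.3% of all genes were. The 12 control arrays fitted alone gave 8 members, 21.6%, where 11.8% of all genes were called.

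Palate mesenchyme is patterned along this axis, and the known regulators parted the regions. Alx1 (difference -3.59, adjusted p = 7.89e-07), Msx1 (-2.86, adjusted p = 0.00377) and Shox2 (-2.40, adjusted p = 0.000167) were lower in posterior palate and Meox2 (2.89, adjusted p = 8.67e-05) was higher, in a list of 13 with 3 higher and 3 lower calls. All 12 skeletal muscle genes were higher in posterior palate, where their mean ran over 9.08 to 10.2 in control posterior arrays, against 5.36 to 7.46 in control anterior arrays. The part of muscle in the region differences of forkhead genes was not tested.

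Foxf1 and Foxf2, the closely related hedgehog-responsive factors, had differences of opposite sign between regions on their brightest probe sets. Foxf1 read 7.99 at the lowest, 8.44 at the median and 8.59 at the highest in control posterior arrays, and 8.34, 9.27 and 9.47 in control anterior arrays. All 6 posterior arrays lay below the anterior mean, with overlap only through the lowest anterior array, number 5. Foxf1 fell by 0.69 (SE 0.16, adjusted p = 0.0174) and was called in 11 of 12 fits that left out an array, all but the one without control posterior array 6 (adjusted p = 0.0510). Foxf2 read 8.54, 8.74 and 9.13 in control posterior arrays and 7.49, 8.31 and 8.75 in control anterior arrays. All 6 posterior arrays lay above the anterior mean, but the difference of 0.53 was not called (adjusted p = 0.615). With the replicate block it was (adjusted p = 0.0370). The other Foxf2 probe set, far dimmer at a mean of 3.85, differed by -0.08 (adjusted p = 0.663 with every probe set tested). The fit of 3 groups takes its spread for Foxf2 partly from the mutant arrays, with an SD of 1.60, against 0.25 over control posterior arrays and 0.48 over control anterior arrays.

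Foxd1 and Foxd2, mesenchymal factors of the same subfamily, also had differences of opposite sign. Foxd2 read 6.01, 6.31 and 6.75 in control posterior arrays and 6.50, 7.41 and 7.57 in control anterior arrays. Control anterior array 5 fell among the posterior arrays and the other 5 lay above them all. Foxd2 fell by 0.96 (SE 0.24, adjusted p = 0.0355) and was called in 2 of 12 fits that left out an array, with an adjusted p of up to 0.0830. Its dimmer second probe set had the opposite sign, 0.17 (adjusted p = 0.505 with every probe set tested), and the mean of both differed by -0.39 and was not called (adjusted p = 0.216). Foxd1 read 9.25, 9.96 and 10.3 in control posterior arrays and 7.55, 8.46 and 9.27 in control anterior arrays, with the lowest posterior and the highest anterior array nearly level. The difference was 1.54 (SE 0.63, adjusted p = 0.183), not called, and it was called with the replicate block (adjusted p = 0.000423). Its SD was 1.93 in mutant posterior arrays, against 0.37 over control posterior arrays and 0.63 over control anterior arrays.

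Foxc1 and Foxc2, which act in mesenchyme and vessels, are a further pair. Foxc2 read 6.68, 7.31 and 7.69 in control posterior arrays and 5.23, 5.88 and 7.80 in control anterior arrays. Every posterior array lay above the anterior mean, and control anterior array 2 was higher than all posterior arrays. The difference of 1.14 (SE 0.33) was not called (adjusted p = 0.0629), and it was called with the replicate block (adjusted p = 0.0101) and without control anterior array 2 (1.48, adjusted p = 0.00132). Foxc1 differed by -0.15 (95% confidence interval -0.66 to 0.36, adjusted p = 0.790), and control anterior array 2 was its highest value too, at 9.07. None of 12 endothelial genes was called for region, and their mean ran over 7.54 to 7.94 in control posterior arrays, against 7.29 to 8.27 in control anterior arrays.

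Foxp2, a repressor best known from brain and lung, was higher in posterior palate. It read 9.28 at the lowest, 9.68 at the median and 9.99 at the highest in control posterior arrays, and 8.32, 8.48 and 9.50 in control anterior arrays. Control anterior array 2 lay among the posterior arrays and the other 5 lay below them all. Foxp2 rose by 0.97 (SE 0.22, adjusted p = 0.0186), and 3 more of its 6 probe sets were called higher, at 0.61 to 1.25, with every probe set tested. In mutant against control posterior palate it differed by -0.22 (adjusted p = 0.552), with mutant array 1 low at 8.46, and by -0.03 without that array (adjusted p = 0.937). Foxp1 and Foxp4, which can pair with Foxp2, differed by -0.03 (adjusted p = 0.887) and -0.10 (adjusted p = 0.743) between regions and by 0.16 (adjusted p = 0.285) and -0.07 (adjusted p = 0.793) between genotypes. With every probe set tested, a dimmer Foxp1 probe set was called higher in the mutants (0.38, adjusted p = 0.0295). A dimmer Foxp4 probe set was called lower in them (-0.24, adjusted p = 0.0423). The remaining Foxp1 and Foxp4 probe sets were called in neither comparison.

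Foxk1 read 7.55, 7.71 and 7.96 in control posterior arrays and 7.94, 8.01 and 8.27 in control anterior arrays, with overlap through 1 posterior array. It fell by 0.35 (SE 0.08, adjusted p = 0.0249), although its 2 other probe sets differed by 0.07 and -0.01. The same control posterior arrays are the low side of its genotype call, so the 2 calls of Foxk1 are not independent. Foxk2 read 9.26 to 9.43 in control posterior arrays and 9.46 to 9.62 in control anterior arrays, without overlap, and its difference of -0.19 was not called (adjusted p = 0.461). Its other probe sets differed by -0.08, -0.11, 0.07 and 0.14, and none was called. Foxa2, an epithelial factor, read 7.28 to 7.84 in control posterior arrays and 6.58 to 7.28 in control anterior arrays, where array 5 reached the lowest posterior value to 2 decimals without exceeding it. Its difference of 0.72 was not called (adjusted p = 0.120). With the replicate block both were called (adjusted p = 0.0443 for Foxk2 and 0.00177 for Foxa2). Foxo1 read 8.58 to 8.84 in control posterior arrays and 8.78 to 9.50 in control anterior arrays and was not called (-0.27, adjusted p = 0.147).

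Between regions the pathway lists gave few calls, where 1.7% of all genes were called higher and 2.12% lower. Hedgehog signalling gave 0 calls among 11 genes, with Gli3 at -0.39 (adjusted p = 0.0599) and Gli2 at -0.31 (adjusted p = 0.0811). Of the 12 genes that act with Foxf factors, Fgf7, a mesenchymal growth factor for epithelium, was higher in posterior palate by 0.86 (SE 0.21, adjusted p = 0.0285). Foxj1 differed by -0.43 (adjusted p = 0.676) and read 9.42 to 10.8 in control posterior arrays, against 10.2 to 10.8 in control anterior arrays. Of 23 cilium genes Spag17, which builds the central pair of the cilium, was lower by 0.85 in posterior palate (adjusted p = 0.0286), and the list had a median of -0.39, against -0.02 over all genes. Of 20 FoxO targets, Trim63, a ubiquitin ligase of muscle, was higher by 1.93 (adjusted p = 0.000354) and Irs2, an insulin receptor substrate, was lower by 0.39 (adjusted p = 0.0227). None of the 21 Foxm1 programme genes was called, with Top2a at -0.23 (adjusted p = 0.124) and Bub1b at -0.21 (adjusted p = 0.147), and Foxm1 differed by -0.07 (adjusted p = 0.639).

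Forkhead genes lie in small groups in the genome, and neighbours are given here side by side for region. On mouse chromosome 8 (RefSeq, GRCm38.p6) Foxf1 is followed by Foxc2 after 28.0 kb and by Foxl1 a further 8.79 kb on. Foxf1 was lower in posterior palate, at -0.69. Foxc2 differed by 1.14 and Foxl1, a mesenchymal factor of the gut, by 0.19 (adjusted p = 0.391). On chromosome 13 Foxq1, Foxf2 and Foxc1 follow each other with gaps of 64.8 and 175 kb and differed by 0.22, 0.53 and -0.15, none of them called. On chromosome 4 Foxd2 lies 15.5 kb from Foxe3, the lens factor, which differed by -0.04 (adjusted p = 0.837).

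The members not yet described were called in neither comparison on their brightest probe set over all arrays. Foxb1, Foxb2, Foxa3, Foxd4, Foxi1, Foxn1, Foxl2, Foxl2os, Foxn4 and Foxp3 differed by between -0.08 and 0.27 for genotype and between -0.22 and 0.20 for region, and Foxj3 by 0.17 and -0.22. Foxl2, the ovary and eyelid factor, read 6.21 to 6.66 in mutant posterior, 6.13 to 6.59 in control posterior arrays and 5.65 to 6.49 in control anterior arrays. Foxn1, a keratinocyte factor of hair and thymus, read 4.63 to 5.00, 4.70 to 4.93 and 4.38 to 4.78 in the same groups, levels at which background may enter. The dimmer Foxn1 probe set was called lower in posterior palate (-0.82, adjusted p = 0.00218 with every probe set tested). Foxp3 read 4.28 to 4.70, 4.38 to 4.57 and 4.14 to 4.40, and Foxb1, a brain factor, 4.16 to 4.98, 4.08 to 4.40 and 4.07 to 4.36. Foxj3 was called for region with the replicate block (adjusted p = 0.0313), and so was Foxd3 (difference 0.21, adjusted p = 0.0373). For genotype Foxj3 was called with mutant arrays 4 to 6 alone.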

How the data were processed

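Palate RNA was hybridised to 18 Affymetrix arrays, whose groups and numbers are those of the sample titles. The authors deposited log2 values. They were made with RMA, which corrects background, normalizes quantiles between arrays and summarises probes, per the submitters' processing notes (version not given in the sources used here). RMA removes a change shared by most genes. Values cover 45101 probe sets. The 64 control probe sets were left out, 34945 with 1 symbol were tested and 932 with several symbols were not named. The brightest probe set over all arrays stood for each of 18193 genes, and no dim gene was removed. The number of arrays limits the precision.

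Differences were tested with limma 3.58.1 (lmFit, eBayes, 2-sided) in R 4.3.3, in 1 fit of 3 groups with 15 residual degrees of freedom, and adjusted by Benjamini-Hochberg over all genes. The fit was tested on simulated data. Both comparisons share the control posterior arrays. The members and gene lists were chosen with earlier results of these data known. Genes were named where called, where groups did not overlap, from a set of palate-related members, and as up to 4 called genes per list (2 with the lowest p where none was called). Other genes named beside these, such as Fgf18, Shh, Foxn2 and Foxn3, were chosen after their values were seen.

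Equal array numbers were taken to pair samples where the deviations of every pair correlated above 0.1 across genes. For region 6 of 6 pairs did (0.111 to 0.430), with 3 of 6 closest to their own number. Equal numbers also share a set of arrays, so this pairing is read from the data and the labels do not state it. For genotype 2 of 6 pairs did (-0.222 to 0.157). Alternatives were other probe sets, filters, scalings, variance models, array weights, blocks, sets of arrays and leaving out each array. A pseudocount was not needed. Figures were drawn with matplotlib 3.10.9.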

Additional observations from a re-analysis of the deposited data

Results flagged for a closer look

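Of 111 sets of 6 values (37 members in 3 groups), 15 had 1 array farther from the rest than Dixon's 95% limit, where chance gives about 1 in 20. Mutant array 1 was low for Foxa1 (6.93), Foxd1 (5.34) and Foxp2 (8.46) and high for Foxb1 (4.98). Mutant array 3 was high for Foxa3 (5.61) and Foxc2 (8.32) and low for Foxn3 (9.00), and mutant array 2 was high for Foxp4 (7.07). Among control posterior arrays, array 2 was high for Foxc1 (7.95) and array 5 low for Foxl2os (4.70). Among control anterior arrays, array 2 was high for Foxc2 (7.81), Foxn3 (9.69) and Foxo1 (9.50), and array 5 was high for Foxa2 (7.28) and low for Foxd2 (6.50).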

How the results depend on the processing

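For genotype 5 members and 2449 genes were called, and leaving out 1 array gave 3 to 6 members (3 without mutant array 1 or control posterior arrays 4 or 5) and 1512 to 2735 genes. The replicate block gave 1 member (Foxo3) and 890 genes, though equal numbers did not pair these samples. The 4 sets as a random block gave 0 members and 588 genes, array weights 8 members and 3332 genes (21.6% of members and 18.3% of genes), and the 12 compared arrays 5 members and 1572 genes. With mutant arrays 1 to 3 only, 4986 genes were called, and with arrays 2 and 3 only, added after seeing the data, 4681. With control posterior arrays 1 to 3 only there were 0 members and 261 genes, and with 4 to 6 only 3 members and 1538 genes. Arrays 1 to 3 of both groups gave 4 members and 2389 genes (10.8% of members and 13.1% of genes), with none of the members called over all arrays. Arrays 4 to 6 of both groups gave 6 members and 3071 genes (16.2% of members and 16.9% of genes). They included 4 of the members called over all arrays, all but Foxf1. For region 4 members and 695 genes were called, and leaving out 1 array gave 0 to 4 members (0 without control posterior array 6) and 389 to 751 genes. The replicate block gave 11 members and 3156 genes, the set as fixed block 10 and 3118, array weights 9 and 3356, and the 12 compared arrays 8 and 2151. The mean of probe sets gave 2 members and 620 genes (5.41% of members and 3.41% of genes). The random block gave 5 members and 1322 genes (13.5% of members and 7.27% of genes). With arrays 1 to 3 only, the counts of members and genes were 0 and 154 (control posterior), 1 and 399 (control anterior) and 1 and 82 (both); with 4 to 6 only they were 2 and 379, 1 and 179, and 0 and 16. Subsets of arrays hold fewer samples; other causes were not tested. Median centring moved the share of higher calls to 40.5% for genotype, against 57.5% as deposited, and to 71.2% for region, against 44.5%. Foxk2 turned to 0.21 for genotype with mutant arrays 1 to 3 only, and Foxn1 to -0.82 for region with its most variable probe set, and both were called there. No called member changed sign in the refits of 1 value a gene, though single dimmer probe sets of Foxd2 and Foxk1 had the opposite sign for region, and 0 of 5 genotype and 0 of 4 region calls held under all of them. Of the uncalled members 22 of 32 for genotype and 24 of 33 for region were never called, and 23 and 11 changed sign somewhere.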
